A study of Mus musculus with 15 samples.

Results

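Tnf was followed through 1 transcript, ENSMUST00000025263.14, its principal spliced form, out of 113193 annotated transcripts in the deposited tables. The transcript was picked by its identifier and not by its level, though earlier results of these data were known at the time. Other Tnf isoforms were left out. The values are levels of this spliced form in RNA that stays with chromatin, and the rate of transcription was not measured. The libraries hold chromatin-associated RNA, the RNA that stays with chromatin after nuclei are fractionated, from bone marrow-derived macrophages of C57BL/6 mice on day 7 of differentiation in medium conditioned by L929 cells. There were 5 groups of 3 libraries: untreated cells, and cells given lipopolysaccharide (LPS, a component of the bacterial outer membrane) at 10 ng/ml for 30 min, 1 h, 2 h or 4 h. The labels do not say whether the 3 libraries of a group came from separate cultures or animals, so the p-values rest on a spread between libraries that may be technical only. The files do not pair transcript identifiers with gene names, so macrophage markers and the other genes of the pathway were not evaluated.

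Tnf encodes tumour necrosis factor, a cytokine made as a membrane protein and shed from the cell surface, which acts through the receptors TNFR1 and TNFR2. In macrophages LPS is sensed by TLR4 with CD14 and MD-2, and signalling through MyD88 and TRIF activates NF-kB and MAP kinases. Tnf is a primary response gene, which means that its transcription does not wait for new protein synthesis, and its mRNA carries an AU-rich element that the protein TTP (Zfp36) binds to speed its decay. RNA on chromatin is sampled before export and before much of that decay.

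The sequence upstream of the gene is shown as background on its start site. It is the 250 bases before the RefSeq start of Tnf, at chr17:35202008-35202257 on the minus strand of GRCm38.p6. The files name no genome build, and no reads of this study were placed on it. The neighbouring gene on the upstream side in RefSeq is Lta, which encodes lymphotoxin alpha, another ligand of the same family, and 0 RefSeq genes overlap Tnf, which matters because the libraries were unstranded. Capitals mark the matches to 3 motifs described after it.
Tnf promoter, 5′ to 3′: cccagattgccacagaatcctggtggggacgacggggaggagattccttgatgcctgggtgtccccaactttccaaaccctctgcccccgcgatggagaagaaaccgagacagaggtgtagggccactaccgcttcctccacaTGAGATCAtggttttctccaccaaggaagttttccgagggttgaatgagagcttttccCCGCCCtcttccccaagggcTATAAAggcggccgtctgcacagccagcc

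Both strands were searched. The TATA box core TATAAA occurs once, beginning 29 bases before the start, and 12.4% of the 32851 promoter windows of the same length hold it. The GC box GGGCGG lies on the opposite strand at 49 bases (32.7% of windows), and the frame TGANNTCA, which cyclic AMP response elements share, lies at 107 bases (11.93% of windows). The core GGAA of ETS and NFAT factors, left in lower case, was found 7 times on either strand, without overlap with the other motifs, and 93.45% of windows hold it. The AP-1 motif TGANTCA (6.75% of windows) and the NF-kB consensus (3.90%) had no match, which says only that these letters are not in this window. A match is a description of the sequence and not a measured site.

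Tnf RNA on chromatin was low in untreated cells and far more abundant within 30 min of LPS. Levels are given first as TPM, which scales estimated counts for transcript length and depth so that every library sums to the same total. Untreated replicates 1, 2 and 3 had 31.3, 12.05 and 45.0 TPM. At 30 min the replicates had 863, 1774 and 1769 TPM. At 1 h they had 2366, 1391 and 1968 TPM. All 6 of these LPS libraries lay far above all 3 untreated ones, and the libraries of 30 min and 1 h overlapped. At 2 h the replicates had 811, 543 and 923 TPM. At 4 h they had 376, 486 and 700 TPM. The 2 h and 4 h libraries lay below every 1 h library and above every untreated one, and they overlapped with each other. The replicate after 30 min with the low value, replicate 1, lay within the range of the 2 h libraries.

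**Figure D1:**
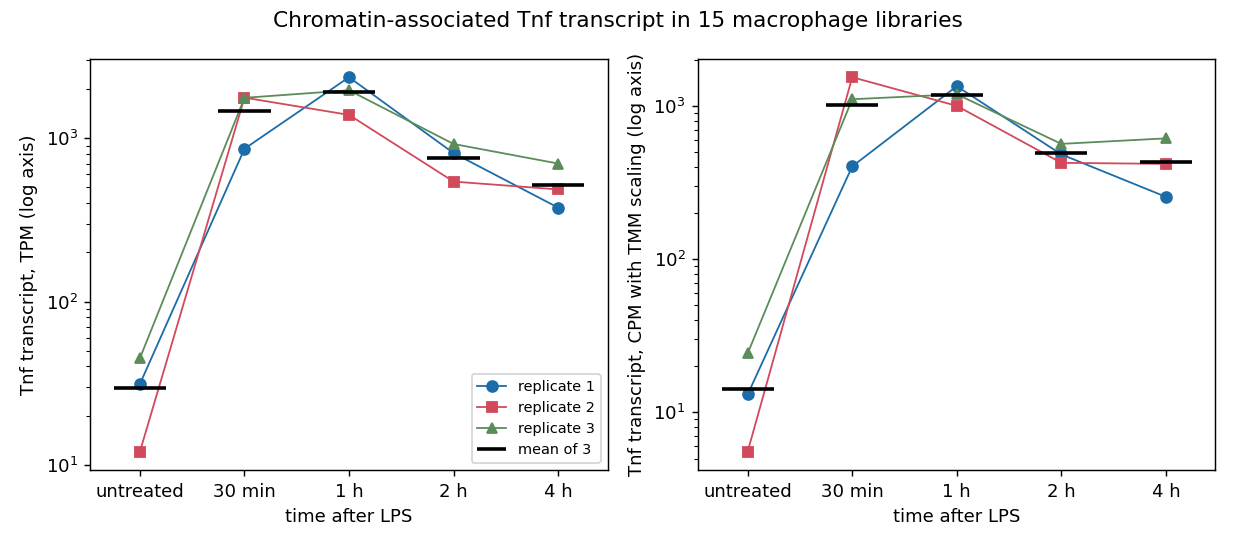
Tnf transcript in each library by time after LPS, as TPM (left) and as CPM with TMM scaling (right), on log axes; lines join libraries with the same replicate number and black bars are means of 3. Mean TPM was 29.4 in untreated cells, 1469 after 30 min, 1908 after 1 h, 759 after 2 h and 521 after 4 h.

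As group means, Tnf stood at 29.4 ± 16.6 TPM in untreated cells, 1469 ± 525 after 30 min, 1908 ± 491 after 1 h, 759 ± 195 after 2 h and 521 ± 165 after 4 h (SD, n = 3 each). The order of the means was thus 1 h, 30 min, 2 h, 4 h and untreated. The same order was found for CPM with TMM scaling, the estimated count divided by library depth and corrected for RNA composition, the scale on which the tests rest. These levels were 14.3 ± 9.4 CPM in untreated cells, 1016 ± 573 after 30 min, 1179 ± 172 after 1 h, 491 ± 70.4 after 2 h and 429 ± 180 after 4 h. More cells making Tnf and more Tnf RNA per cell cannot be told apart in such bulk samples.

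Ranked by TPM within a library, the Tnf transcript stood near the top of the list after LPS. In untreated cells it stood much lower, though still above most detected transcripts. It ranked 6524, 18190 and 2640 in untreated replicates 1, 2 and 3, where 54065 to 60340 transcripts had at least 1 count. At 30 min it ranked 35, 26 and 10, and after 1 h 8, 27 and 8. It was still ranked between 41 and 117 after 2 h and between 49 and 256 after 4 h. This single transcript took 0.0544% to 0.151% of all estimated counts after 30 min and 1 h, against 0.000777% to 0.00270% in untreated cells.

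The counts behind these levels were ample after LPS and thin in 1 untreated library. Libraries held 7537521 to 11892599 estimated counts. Tnf had 234.6, 60.5 and 210 of them in untreated replicates 1, 2 and 3, and 2096 to 15046 in the 12 LPS libraries. The share in untreated replicate 2 was 0.000777% (95% Wilson interval 0.000605% to 0.000999%) and that in untreated replicate 3 was 0.00270% (0.00236% to 0.00309%), so the untreated libraries differed by more than counting error. Such intervals cover counting error only. Counting alone would give a coefficient of variation of 0.815% to 2.18% after LPS and 6.53% to 12.9% in untreated cells. The CPM of libraries of 1 group varied by 14.3% after 2 h and 14.6% after 1 h, but by 41.9% after 4 h, 56.4% after 30 min and 65.8% in untreated cells.

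The first question of the design is whether LPS changed Tnf at each time. Tnf rose at all 4 times. In edgeR's quasi-likelihood fit of all 15 libraries, the fold over untreated cells was 70.9 after 30 min (95% interval 25.5 to 197), 82.3 after 1 h (29.3 to 231), 34.3 after 2 h (12.95 to 90.8) and 29.97 after 4 h (11.4 to 78.7). On the log2 scale this is 6.15 ± 0.68, 6.36 ± 0.69, 5.10 ± 0.65 and 4.91 ± 0.64 (± standard error). The Benjamini-Hochberg adjusted p over all 46186 transcripts tested by edgeR was 0.0043 after 30 min, 0.0026 after 1 h, 0.0038 after 2 h and 0.0017 after 4 h.

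These calls were rare at early times and less so later. The share of tested transcripts called raised was 0.351% after 30 min, 0.944% after 1 h, 1.97% after 2 h and 3.91% after 4 h. With the replicate number as a block these shares were 0.916%, 2.93%, 6.42% and 8.87%, and Tnf was called raised at each time in that fit as well. In the joint F test of the 4 times Tnf had an adjusted p of 0.0022 by edgeR, in a test that called 6.37% of transcripts (16.3% with the block). A separation of all 3 LPS libraries from all 3 untreated ones was less rare. It was seen, upward in CPM, for 5.39% of transcripts after 30 min, 9.22% after 1 h, 12.4% after 2 h and 13.3% after 4 h.

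An exact permutation test needs no model of the counts. It does treat all libraries as exchangeable and makes no use of the replicate numbers, by which libraries were alike. The 12 LPS libraries exceeded the 3 untreated ones by 5.21 in mean log2(TPM + 1), with all 12 on one side (exact two-sided p = 0.0044, the smallest that relabeling 3 of 15 libraries allows). Each single time against untreated cells gave exact p = 0.1, the smallest possible with 3 against 3. The fold differed between libraries of the same number, and untreated replicate 2 had the lowest untreated level. Taken as CPM ratios within replicate numbers 1, 2 and 3, 30 min stood at 30.7, 277 and 45.5 times the untreated library and 4 h at 19.4, 75.3 and 25.3 times. As TPM ratios all were lower, at 27.6, 147 and 39.3 after 30 min and 12.03, 40.3 and 15.6 after 4 h.

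Among all transcripts tested, Tnf lay in the upper tail without being the extreme. Its log2 fold change exceeded that of 99.2% of transcripts after 30 min, 99.3% after 1 h, 98.3% after 2 h and 97.9% after 4 h, where the median transcript stood at 0.01, -0.06, -0.03 and -0.06. Many of the larger values belong to transcripts with few counts. Among transcripts that averaged 10 CPM or more in one of the groups compared, Tnf ranked 53 of 14041 after 30 min, 62 of 14335 after 1 h, 195 of 14996 after 2 h and 389 of 15435 after 4 h. By p-value it ranked 5 after 30 min, 9 after 1 h, 36 after 2 h and 108 after 4 h of all 46186. All 4 comparisons share the untreated libraries.

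**Figure D2:**
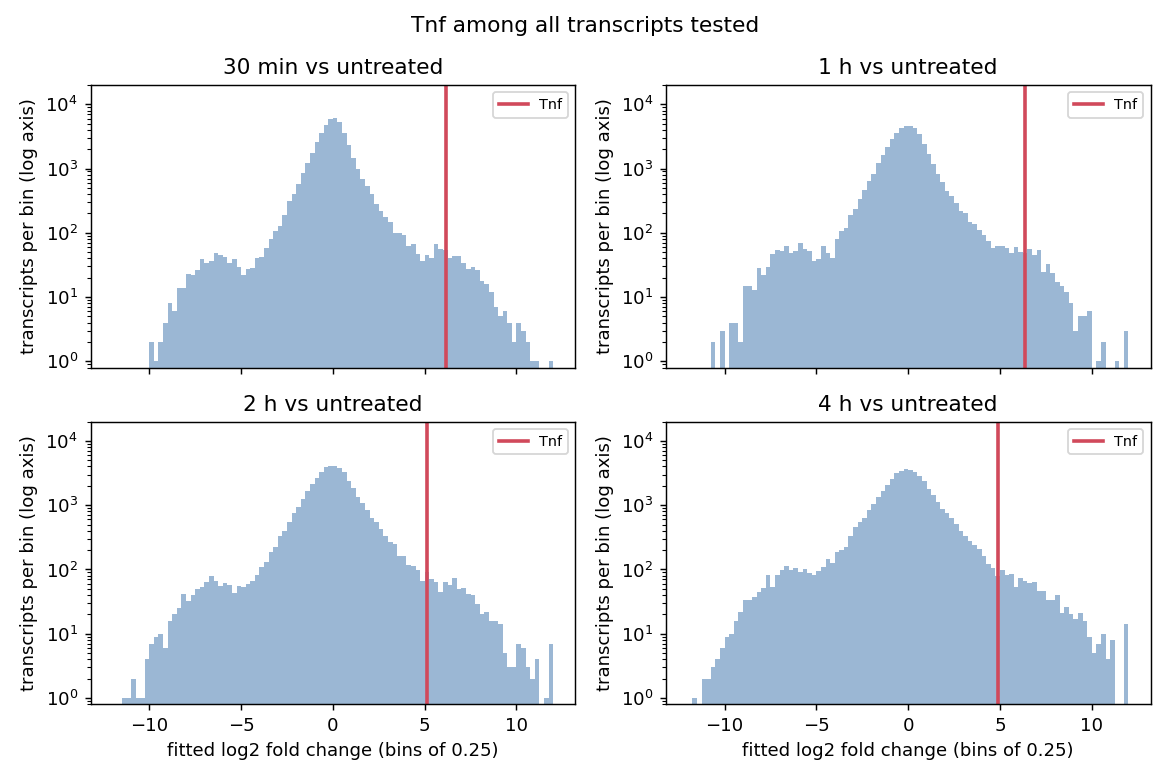
Number of transcripts by fitted log2 fold change against untreated cells (bins of 0.25, log count axis; the outermost bins also hold larger values), with Tnf as a red line. Tnf stands at 6.15, 6.36, 5.10 and 4.91 after 30 min, 1 h, 2 h and 4 h, in the right shoulder of each distribution.

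Limits on the size and on the calls are these. With only the 2 groups in the fit, the 30 min rise was as large (log2 fold change 6.15) but had an adjusted p of 0.24 by edgeR. Without all libraries of 1 replicate number, which leaves 2 per group, 1 of the 12 calls against untreated cells was kept and the joint test had an adjusted p of 0.0696 to 0.119 by edgeR. Without untreated replicate 3, the highest of its group, the log2 fold changes were 6.76, 6.97, 5.71 and 5.52. The scaling moved the values at all times, and most at 4 h. Total counts alone gave log2 fold changes of 5.63, 6.03, 4.74 and 4.13 after 30 min, 1 h, 2 h and 4 h. The medians over all transcripts were then -0.38, -0.48, -0.47 and -0.85. At 4 h, limma on log2(TPM + 1) gave 4.23.

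The next question is how the level moved once it had risen. Mean Tnf was highest after 30 min and 1 h and lower after 2 h and 4 h, while staying well above untreated cells. In CPM, neither the 2 h nor the 4 h group was separate from the 30 min group. At 403 CPM, 30 min replicate 1 lay below every 2 h library and within the range of the 4 h libraries. In TPM the 4 h libraries (376 to 700) did lie below all those of 30 min (863 to 1774), while the 2 h libraries did not. The share of all transcripts separated in this way in TPM was not computed. No single pair of LPS times passed the test for Tnf after adjustment over all transcripts, so the neighbours in the order of levels are not told apart by that test. The closest to the threshold was 4 h against 1 h, at 429 and 1179 CPM.

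From 30 min to 1 h the direction depended on the replicate. Replicate 1 stood at 1344 CPM after 1 h and 403 CPM after 30 min, replicate 2 at 1001 and 1539, and replicate 3 at 1191 and 1105. The fitted log2 fold change was 0.22 (95% interval -0.96 to 1.39, edgeR adjusted p = 1), and it was -0.17 without 30 min replicate 1. In this comparison edgeR called 0 of the 46186 transcripts, with an unadjusted p under 0.05 for 2174 and 222 called by DESeq2.

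All 3 same-numbered pairs had less Tnf after 2 h than after 1 h. At 2 h the 3 libraries had 483, 425 and 565 CPM, against 1344, 1001 and 1191 CPM after 1 h, and the groups did not overlap, as for 8.16% of tested transcripts in this direction. The log2 fold change was -1.26 (-2.46 to -0.07), with an adjusted p of 0.40 by edgeR, in a comparison where 0.0974% of transcripts were called lowered (1.52% with the block). The exact permutation test gave p = 0.1, the smallest possible.

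Between 2 h and 4 h little was resolved. The 4 h libraries had 255, 418 and 614 CPM, against 483, 425 and 565 CPM after 2 h, so the 4 h group spanned the whole 2 h group. The log2 fold change was -0.19 (-1.37 to 0.99, edgeR adjusted p = 1; 0.0390% of transcripts called lowered, 0.491% with the block), and it was 0.07 without 4 h replicate 1. In TPM all 3 pairs stood lower after 4 h, at 0.464, 0.895 and 0.759 times the 2 h value.

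The remaining pairs of LPS times were not neighbours in time. At 4 h Tnf stood 2.75-fold below 1 h (95% interval 1.19 to 6.32), with a log2 fold change of -1.46 and an adjusted p of 0.19 by edgeR (1.84% of transcripts called lowered; 4.97% with the block). The groups did not overlap, as for 10.6% of tested transcripts in this direction. The adjusted p was 0.0496 in edgeR with total counts alone and 0.0478 in limma on log2(TPM + 1). It was 0.053 in limma on log2(TPM + 0.1), 0.086 in DESeq2 and 0.080 in edgeR with the block. In edgeR with total counts without the most abundant transcript it was 0.098. This call thus differed between fits that vary in scaling, pseudocount, tool or block. Against 30 min, the log2 fold change was -1.05 after 2 h (-2.24 to 0.14, adjusted p = 0.41; 0.431% called lowered, 2.70% with the block). At 4 h against 30 min it was -1.24 (-2.44 to -0.05, adjusted p = 0.24; 2.31% called lowered, 5.59% with the block). Values not credited to another fit or to the block are from the same edgeR fit of all libraries.

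**Figure D3:**
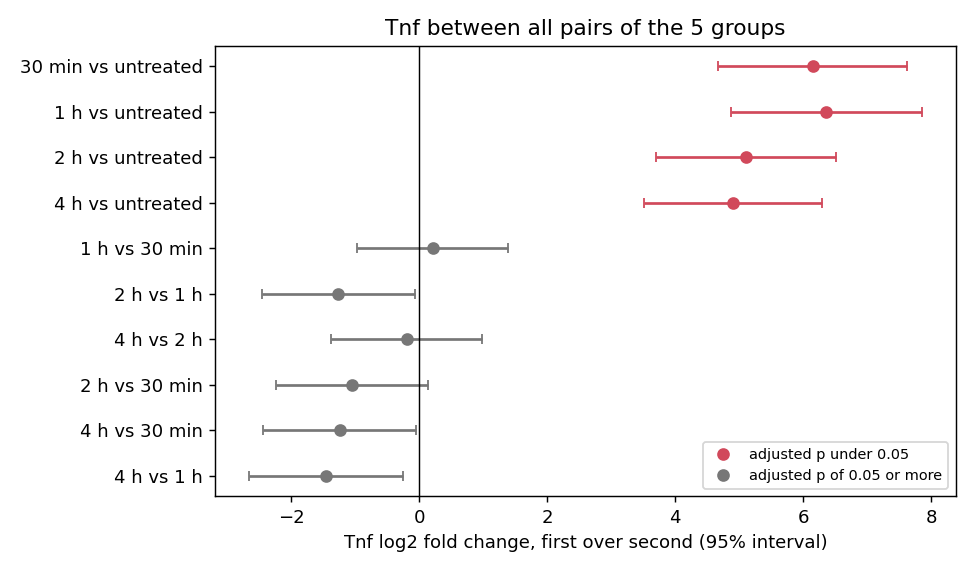
Fitted log2 fold change of Tnf between every pair of groups (first named over second), with 95% intervals from the edgeR fit; red points have an adjusted p under 0.05. The 4 comparisons with untreated cells lie between 4.91 and 6.36, and the 6 comparisons among LPS times between -1.46 and 0.22 with none past the threshold.

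Pooling neighbours, a contrast added after these values were seen, set the mean of 2 h and 4 h against the mean of 30 min and 1 h. Tnf averaged 460 CPM over the 6 late libraries and 1097 CPM over the 6 early ones, a log2 fold change of -1.25 ± 0.39 (95% interval -2.10 to -0.41). The edgeR adjusted p was 0.064, and 0.030 with the replicate number as a block, in a contrast that called 4.22% of transcripts lowered (8.20% with the block). This call therefore rests on whether the number enters the fit, and it also passed without untreated replicate 2 or 3 or without 30 min replicate 1 (adjusted p = 0.043, 0.0496 and 0.029). It did not pass in any other fit without 1 library, where the edgeR adjusted p reached 0.140 (without 4 h replicate 1). Of the transcripts tested, 14.5% had a lower value than Tnf in this contrast.

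Finally, transcripts were ranked by how closely they followed Tnf over the 15 libraries, by Pearson's r of log2 CPM, among 17314 others that averaged 10 CPM or more in some group. All transcripts are read from the same 15 libraries, whose groups differ in treatment and whose depth and composition vary, so r is a description. Its median was 0.04, and 70 transcripts (0.404%) reached 0.9. By this measure the highest value, r = 0.97, belonged to ENSMUST00000025684.3 and ENSMUST00000202020.1. These 2 entries had the same length of 3353 nt and identical estimated counts in every library, so they count as 1 measurement whose reads could not be assigned to either. Its mean was 10.9 CPM in untreated cells, 151 after 30 min, 202 after 1 h, 159 after 2 h and 149.97 after 4 h. It thus shared the order of untreated cells and 1 h with Tnf, while its levels after 2 h and 4 h were close to that after 30 min. The next transcript had r = 0.96. The closest match depended on the measure: by Spearman rho (0.82) the pair of identical entries ranked 135, and of the 100 transcripts of highest r, 27 were among the first 100 by rho, against 94 by r on log2(TPM + 1).

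At the other end, ENSMUST00000100534.2 (3124 nt) had r = -0.91 and ENSMUST00000225368.1 (3998 nt) had r = -0.90. The first averaged 17.4 CPM in untreated cells, 4.46 after 30 min, 2.31 after 1 h, 3.62 after 2 h and 4.63 after 4 h. The second averaged 15.2 CPM in untreated cells, 5.73 after 30 min, 3.99 after 1 h, 6.48 after 2 h and 7.32 after 4 h. Both were lowest after 1 h, the time at which mean Tnf was highest. They were chosen on these libraries, so no test of them is given. The sources used here give no gene names for these identifiers.

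**Figure D4:**
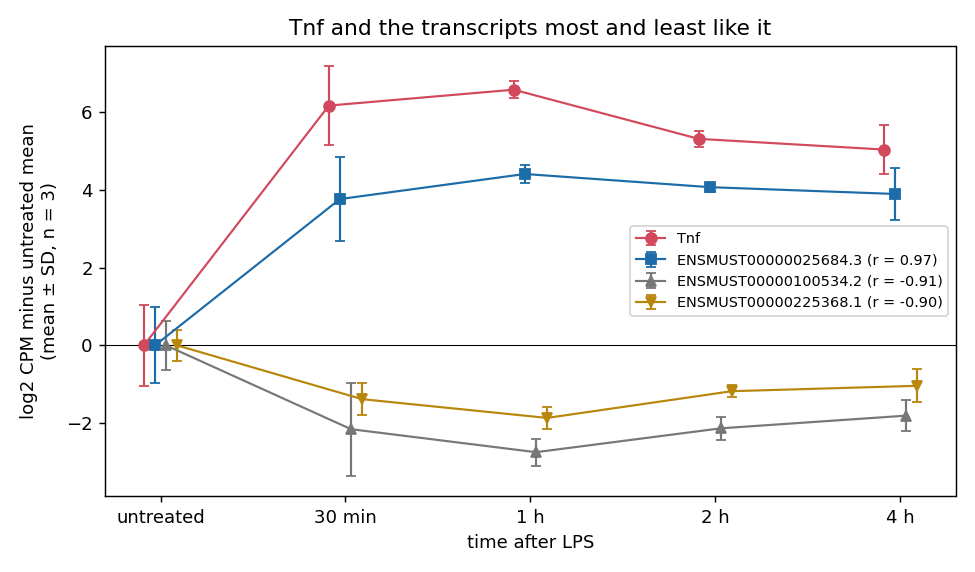
Log2 CPM relative to the untreated mean for Tnf, for the transcript of highest r and for the pair of lowest r, as mean ± SD of 3 libraries by time after LPS. Tnf and the transcript of highest r are highest after 1 h, and the other 2 are lowest there.

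The most abundant transcript of the series, chosen after its values were seen, took 9.66% to 41.2% of the counts of a library and so lowers the TPM of all others. With it left out, Tnf was at 35.1 ± 22.3 TPM in untreated cells, 1820 ± 783 after 30 min, 2197 ± 465 after 1 h, 843 ± 165 after 2 h and 639 ± 286 after 4 h (SD, n = 3 each). The order of the group means was the same, and the 1 h libraries still did not overlap those of 2 h or 4 h.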

How the data were processed

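Chromatin-associated RNA of 15 libraries was quantified with kallisto 0.44.0, per the submitters' processing notes. The annotation and genome build are not given in the sources. The authors deposited, per library, estimated counts and TPM for each transcript, with its length and effective length. Lengths are read here as nt. Libraries were unstranded per the labels.

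Estimated counts were rounded and tested with edgeR 4.0.16 in R 4.3.3 (quasi-likelihood, filterByExpr with a minimum count of 10 and a minimum total of 15, TMM factors from 0.679 to 1.52), in 1 fit of all libraries with the 5 groups. Benjamini-Hochberg adjustment ran over 46186 transcripts, with calls at 0.05. Standard errors were derived from the F statistic and are approximate; they leave out the uncertainty of kallisto's assignment. All 10 pairs of groups were compared. The test was tested on simulated data drawn with no effect of the replicate number, so that simulation does not cover such an effect. Log2 CPM for rankings used a prior count of 2. Alternatives used limma 3.58.1 and DESeq2 1.42.0. Named transcripts were Tnf and the 2 highest and 2 lowest by r. The member, lists and tests were chosen with earlier results of these data known; lists of gene symbols could not be evaluated, since 0 of 49997 RefSeq entries carry an Ensembl identifier.

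The labels do not say what the replicate numbers mark, but same-numbered libraries were alike. Deviations from group means correlated at 0.216 to 0.483 in all 30 same-numbered pairs of different groups, and at -0.306 to -0.005 in the 60 others. Subtracting the group means makes positive values in same-numbered pairs push the others negative, so the negative values are not separate evidence.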

Additional observations from a re-analysis of the deposited data

How the results depend on the processing

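The rise of Tnf at 1 h, 2 h and 4 h kept its direction and its call under all 9 alternatives, with log2 fold changes of 5.95 to 6.48, 4.58 to 5.18 and 4.13 to 4.92. The rise at 30 min did so under 8 of 9, the exception being the fit of only the 2 groups (6.15, adjusted p = 0.24), and ranged from 5.63 to 6.19. With the replicate number as a block the 4 values were 6.19, 6.48, 5.18 and 4.92, and the block changed no call on a single pair of groups. Leaving out 1 library in turn gave 5.72 to 6.76, 5.98 to 6.97, 4.71 to 5.71 and 4.52 to 5.52, with no call lost, and joint adjusted p from 0.0019 to 0.013. Leaving out all libraries of 1 number, which left 2 per group, gave 5.31 to 6.72 at 30 min, 6.12 to 7.01 at 1 h, 4.82 to 5.57 at 2 h and 4.54 to 5.13 at 4 h; the joint adjusted p was then 0.0696 to 0.119, and 1 call was kept, at 4 h without number 3 (adjusted p = 0.035).

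The comparison of 4 h with 1 h passed with total counts alone (-1.90, adjusted p = 0.0496) and in limma on log2(TPM + 1) (-1.88, 0.0478); over single libraries left out it was -1.81 to -1.19. Other comparisons between LPS times were not called in any alternative. The value of 1 h against 30 min ranged from -0.17 to 0.64 over single libraries left out and -0.25 to 0.80 over numbers, and that of 4 h against 2 h from -0.54 to 0.072 and -0.44 to 0.042; the sign turned without 30 min or 4 h replicate 1 and without number 1. The late against early contrast was -1.29 with the block and -1.44 to -1.04 over single libraries left out. The cause of these shifts was not tested.

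The difference between LPS and untreated libraries was 5.26 on log2(TPM + 0.1) and 5.79 on log2 CPM (exact p = 0.0044 in each). The transcript of highest r had 0.97 on log2(TPM + 1) and 0.97 with total counts without the most abundant transcript, with Spearman rho 0.82; that of lowest r had -0.89, -0.92 and rho -0.86.

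Counts of calls over all transcripts moved between fits. At 30 min they were 170 in the report's fit, 464 with the block, 1122 in DESeq2, 81 with total counts and 0 with only the 2 groups. In the report's fit 3251 had an unadjusted p under 0.05 at 30 min. In the same order of fits, counts were 480, 1802, 2491, 241 and 150 at 1 h. They were 1184, 4376, 4335, 566 and 422 at 2 h, and 2884, 6992, 6466, 3025 and 1160 at 4 h. All moved by more than 1.5 times from the report's fit, except that with total counts at 4 h. Tnf had its fewest counts, 60.5, in untreated replicate 2.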
